A study of Drosophila melanogaster with 15 samples.

Results

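Rhodopsins are the light receptors of the fly eye, and the transcripts of 6 of them (ninaE, Rh2, Rh3, Rh4, Rh5 and Rh6) were followed across the study's libraries. The genes were chosen by name in the deposited expression table. Each had 1 transcript there, so 6 of 11257 genes and 6 of 18960 transcripts are described. The choice applied no rule on measured values, but earlier results of these data were known when it was made.

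A rhodopsin is an opsin protein bound to a vitamin A-derived chromophore, and light absorbed by it starts a G protein cascade that opens the TRP channels of the photoreceptor. In each unit of the compound eye the outer photoreceptors, R1 to R6, express ninaE (also called Rh1). The inner photoreceptors are R7 and, beneath it, R8. Pale units pair the ultraviolet opsin Rh3 in R7 with the blue opsin Rh5 in R8. Yellow units pair the ultraviolet opsin Rh4 in R7 with the green opsin Rh6 in R8. Rh2 is the opsin of the ocelli, the simple eyes on top of the head.

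The study asked how amphetamine (AMPH), which acts at the dopamine transporter, changes transcription when that transporter is missing. WT flies were of an isogenic w1118 strain, and DAT mutants carried dDATfmn, a loss-of-function insertion of part of a roo transposon in an intron of the dopamine transporter gene, after 7 generations of backcrossing to that strain. Adult males aged 7 days received agar and sucrose food with vehicle or with 10 mM AMPH for 48 h. PolyA+ RNA gave 8 WT libraries (4 on vehicle, 4 on AMPH) and 7 libraries of the DAT mutant (4 on vehicle, 3 on AMPH). Each strain is a single stock, so a difference between strains cannot be told apart from other differences between the stocks. All flies carried the w1118 eye colour mutation. The sources name the tissue both as brain and as head.

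Values are RPKM, reads scaled to transcript length and to the size of the library, which can be compared between genes. The 13 libraries whose group means match those that the study lists were used in the fits. Left out were replicate 1 of WT vehicle and replicate 2 of DAT mutant vehicle, which enter in an alternative with all 15 libraries. The latter stood apart: its best Spearman correlation with a library of its group was 0.858, against at least 0.971 for every other library. Depth was estimated from the smallest step between low values, taken as 1 read, and was 11.1 to 77.7 M reads per library. At that estimate ninaE rested on 315772 to 2716690 reads and Rh6 on 1299 to 101143 reads, and the fewest reads behind any rhodopsin value were 178, for Rh2 in DAT mutant AMPH replicate 2 (6.67 RPKM). Changes are log2(RPKM + 1) differences with their standard error (SE) from limma, and p-values were adjusted by the Benjamini-Hochberg method over all transcripts tested. A transcript was called at an adjusted p under 0.1. Statements that the values of groups do or do not overlap are descriptions. The share of all transcripts whose groups do not overlap was not counted. Each library came from an individual brain or head, by the study's methods, and p-values measure the spread between these libraries.

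Eye tissue was present in every library. Of 7 photoreceptor markers, all 7 were found, and their summed level was between 8317 and 15124 RPKM. The summed level of 5 pan-neuronal markers was 356 to 945 RPKM, with the lowest value in the DAT mutant vehicle group. ninaE had the highest RPKM of all transcripts in 14 of 15 libraries and held 1.41 to 2.91% of the summed RPKM. On vehicle, the transcript of the transporter gene itself was at 2.18 to 3.12 RPKM in WT and at 1.98 to 2.37 RPKM in DAT mutants, ranges that overlapped. On AMPH it was at 1.93 to 3.30 RPKM in WT and at 1.23 to 1.81 RPKM in DAT mutants, with no overlap.

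The order of the rhodopsin levels differed between the strains. On vehicle, WT means were 22832 ± 7271 RPKM for ninaE, 973 ± 215 for Rh4, 706 ± 187 for Rh3, 689 ± 462 for Rh6, 231 ± 43.0 for Rh5 and 83.2 ± 18.2 for Rh2 (SD, n = 3). The ranges of Rh4, Rh3 and Rh6 overlapped in WT, so that their order lay within the spread. In DAT mutants on vehicle, the means were 26631 ± 535 RPKM for ninaE, 1549 ± 184 for Rh4, 673 ± 79.3 for Rh3, 305 ± 98.2 for Rh5, 84.2 ± 2.88 for Rh6 and 79.9 ± 40.2 for Rh2 (SD, n = 3). Rh6 lay at the level of Rh2 there, with overlapping ranges, and not at that of Rh3 and Rh4.

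**Figure D1:**
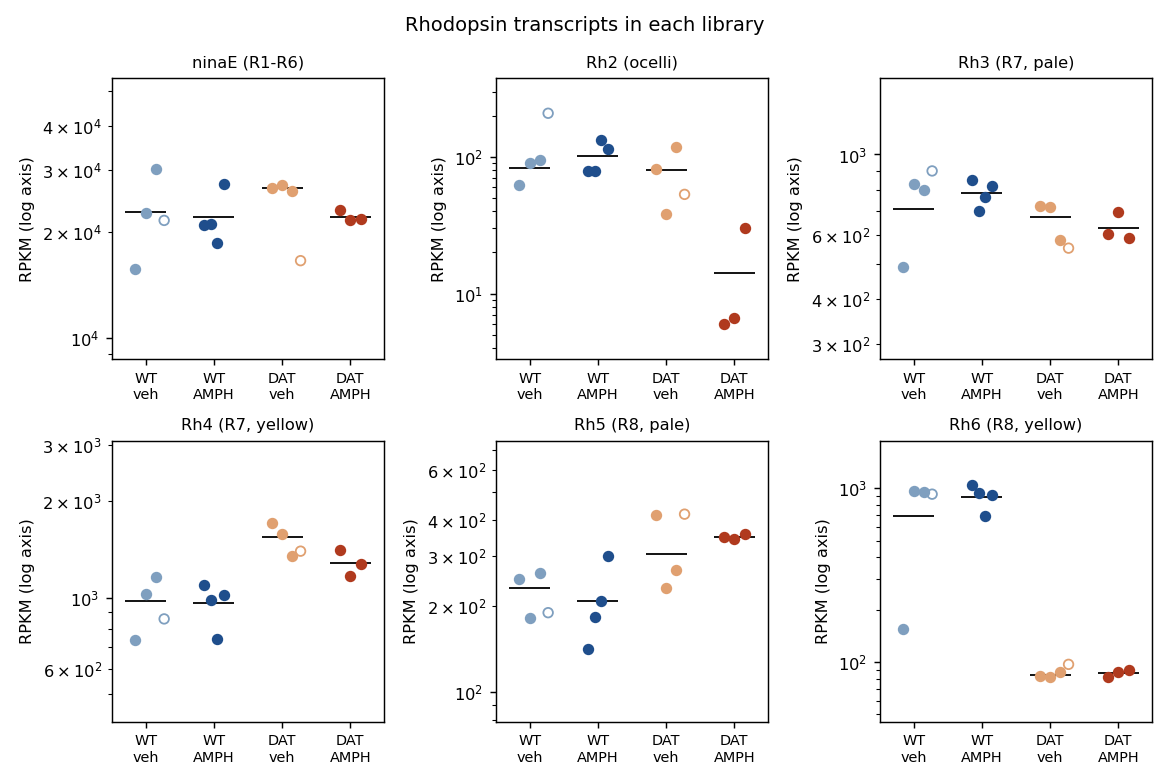
RPKM (log axis) of each rhodopsin in every library, by strain and treatment (veh, vehicle). Filled points are the 13 libraries of the fits, open points the 2 libraries left out, and lines the means of the filled points. Rh6 is between 696 and 1038 RPKM in all WT libraries but 1 (155 RPKM) and below 98 RPKM in all DAT mutant libraries, and Rh2 is lowest in the 3 DAT mutant AMPH libraries.

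The R8 opsin Rh6 (FBgn0019940; chromosome 3R, 11308880 to 11310421, plus strand; dm3, as are all positions here) showed the main difference between the strains. WT vehicle replicates 1 to 4 had 925, 155, 962 and 949 RPKM. WT AMPH replicates 1 to 4 had 1038, 934, 696 and 919 RPKM. DAT mutant vehicle replicates 1 to 4 had 82.6, 97.0, 82.5 and 87.5 RPKM, and DAT mutant AMPH replicates 1 to 3 had 81.6, 88.0 and 89.9 RPKM. All 7 DAT mutant libraries lay below all 8 WT libraries, and 7 of the WT libraries were far above them. Their mean was 918 ± 106 RPKM (SD, n = 7), against 87.0 ± 5.45 RPKM in the DAT mutant (SD, n = 7), a ratio of 10.5.

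On AMPH, where no library stood apart, Rh6 was 3.34 log2 units lower in the DAT mutant than in WT (log2 change -3.34, SE 0.16, limma adjusted p = 2.27e-05). It ranked 5 by adjusted p among 10029 genes and 7 from the lowest by log2 change. On vehicle the log2 change was -2.62 (SE 0.62, limma adjusted p = 0.0562), and with all 15 libraries it was -2.77 (adjusted p = 0.0743). The call on vehicle was lost when any 1 of the other 5 libraries was left out (adjusted p = 0.108 to 0.159), and without the filter on low values (adjusted p = 0.114). When WT vehicle replicate 2 was left out it was -3.49, with an adjusted p of 5.33e-05. Fewer Rh6 cells and less Rh6 RNA per cell cannot be told apart in these bulk libraries, nor for the other opsins.

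WT vehicle replicate 2 held 155 RPKM of Rh6, which is 5.91-fold below the mean of the other 7 WT libraries and 1.79 times the DAT mutant mean. Its ninaE level was 1.48-fold below the other WT libraries, and so was its photoreceptor marker sum (8317 RPKM against a mean of 12323 RPKM). Arr2 alone, at 5927 to 11003 RPKM in the WT vehicle group, made up most of that sum. Relative to that sum, Rh6 was 1.87 per 100 RPKM in this library, 6.35 to 8.67 in the other WT libraries and 0.545 to 0.955 in the DAT mutant libraries. Rh6 was therefore low in this library also relative to other photoreceptor transcripts. A list of the 30 transcripts of 24 genes that separated the strains by at least 1 log2 unit in the 12 other libraries of the fits (6 WT, 6 DAT mutant) placed it with WT at 28 transcripts. Its median position was 100% of the way from the DAT mutant mean to the WT mean. The exceptions were Rh6, at 25.2% of the way, and Cks30A, a cyclin-dependent kinase subunit, at 23.5%. The list was chosen on these values, and its positions are a description with no test.

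**Figure D2:**
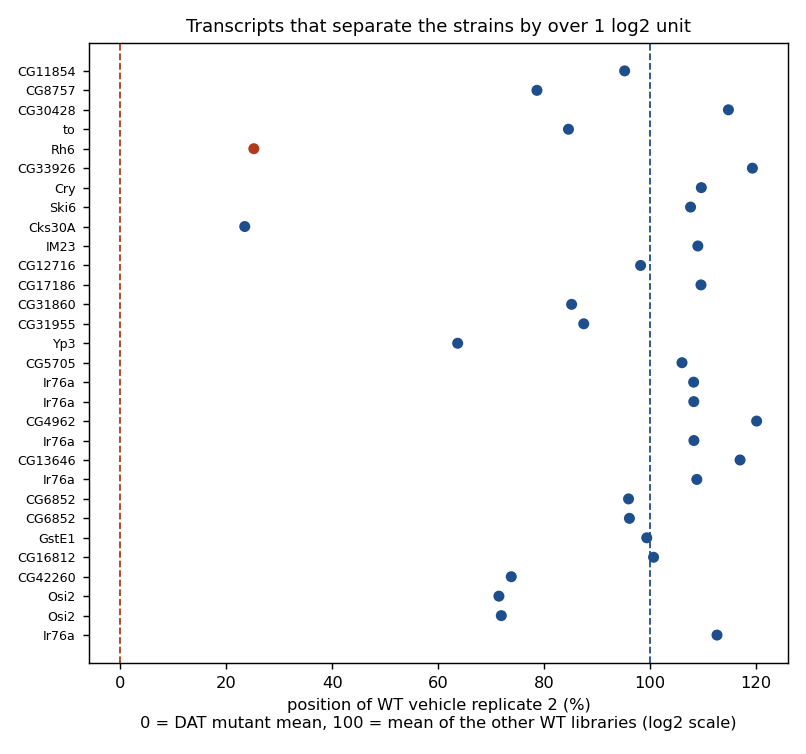
Position of WT vehicle replicate 2 (x axis, % of the way on the log2 scale, from 0 at the DAT mutant mean to 100 at the mean of the other WT libraries) for the 30 transcripts that separate the strains by at least 1 log2 unit (y axis, by gene). Rh6 (red, 25.2%) and Cks30A (23.5%) are the transcripts nearer to the DAT mutant.

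AMPH left Rh6 without a call in either strain. In WT the log2 change was 0.76 (SE 0.58, limma adjusted p = 0.424), a value that rested on the low replicate: without WT vehicle replicate 2 it was -0.11. In the DAT mutant the log2 change was 0.04 (SE 0.09, adjusted p = 0.816). The 3 DAT mutant AMPH libraries overlapped with their vehicle group.

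The other R8 opsin, Rh5 (FBgn0014019; chromosome 2L, 12008376 to 12009846, plus strand), differed less. WT vehicle replicates 1 to 4 had 190, 250, 181 and 261 RPKM, and WT AMPH replicates 1 to 4 had 142, 184, 209 and 300 RPKM. DAT mutant vehicle replicates 1 to 4 had 416, 419, 231 and 267 RPKM, and DAT mutant AMPH replicates 1 to 3 had 348, 343 and 356 RPKM. On AMPH all 3 DAT mutant libraries were above the 4 WT libraries, whereas on vehicle the groups overlapped.

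Rh5 was not called between the strains, with a log2 change of 0.79 on AMPH (SE 0.23, limma adjusted p = 0.114) and of 0.37 on vehicle (SE 0.23, adjusted p = 0.429). The first was called without WT AMPH replicate 4 (log2 change 0.98, adjusted p = 0.0343) and with all 4 groups in a single fit (adjusted p = 0.0798). The summed level of Rh5 and Rh6 on AMPH was 1105 ± 140 RPKM in WT (SD, n = 4) and 436 ± 9.23 RPKM in the DAT mutant (SD, n = 3). On vehicle the sums were 919 ± 447 and 389 ± 97.4 RPKM (SD, n = 3 each). WT vehicle replicate 2, with a sum of 405 RPKM, lay within the range of the DAT mutant (313 to 499 RPKM).

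Rh6 made up 38.4 to 84.1% of the R8 sum in WT on vehicle and 75.4 to 88.0% in WT on AMPH, but 16.6 to 26.3% in DAT mutants on vehicle and 19.0 to 20.4% on AMPH. The larger of both R8 opsins was thus Rh6 in every WT library but WT vehicle replicate 2 and Rh5 in every DAT mutant library.

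The R7 opsins differed less between the strains. Rh4, the yellow R7 opsin (FBgn0003250; chromosome 3L, 16845621 to 16856124, minus strand), had 858, 736, 1024 and 1158 RPKM in WT vehicle replicates 1 to 4 and 1093, 980, 744 and 1021 RPKM in WT AMPH replicates 1 to 4. In DAT mutant vehicle replicates 1 to 4 it had 1715, 1398, 1580 and 1351 RPKM, and in DAT mutant AMPH replicates 1 to 3 it had 1410, 1166 and 1275 RPKM. Every DAT mutant library was above every WT library, if by little at the nearest values (1166 and 1158 RPKM).

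On vehicle, Rh4 was called higher in the DAT mutant (log2 change 0.69, SE 0.20, limma adjusted p = 0.0951). On AMPH it was not (log2 change 0.43, SE 0.18, adjusted p = 0.263). The call on vehicle lay close to the threshold: it was lost with all 15 libraries (0.69, adjusted p = 0.223), without the filter on low values (adjusted p = 0.14), and without any 1 of the libraries other than WT vehicle replicate 4 (adjusted p = 0.164 to 0.223).

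The Rh4 gene spans 3 genes on the other strand, and sina, which encodes a ubiquitin ligase needed for R7 development, is the highest of them. sina was at 149 to 289 RPKM in WT and at 247 to 384 RPKM in DAT mutant libraries, while sinah and CG13029 were below 4 RPKM. Whether the counting used strand is not given in the sources used here, so reads of Rh4 and sina could be shared.

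Rh3, the pale R7 opsin (FBgn0003249; chromosome 3R, 15906772 to 15908172, minus strand), had 901, 491, 831 and 796 RPKM in WT vehicle replicates 1 to 4 and 849, 698, 761 and 817 RPKM in WT AMPH replicates 1 to 4. DAT mutant vehicle replicates 1 to 4 had 720, 551, 716 and 581 RPKM, and DAT mutant AMPH replicates 1 to 3 had 603, 693 and 588 RPKM. All 3 DAT mutant AMPH libraries were below all 4 WT AMPH libraries, a description of few libraries with no call. The vehicle groups overlapped.

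Rh3 was not called between the strains on vehicle (log2 change -0.04, SE 0.21, limma adjusted p = 0.949) or on AMPH (log2 change -0.31, SE 0.14, adjusted p = 0.303). Within R7, Rh4 made up 55.2 to 60.0% of the sum of Rh3 and Rh4 in WT on vehicle and 49.4 to 58.4% in WT on AMPH. In the DAT mutant the share was 68.8 to 70.4% on vehicle and 62.7 to 70.02% on AMPH. The shares of the strains did not overlap in these 13 libraries, nor with the 2 others included (48.8 and 71.7%). The share of the yellow opsin was thus higher in the mutant in R7 and lower in R8.

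AMPH called none of these 3 opsins (Rh3, Rh4 and Rh5) in either strain. In WT the log2 changes were 0.18 for Rh3 (SE 0.21, limma adjusted p = 0.604), -0.01 for Rh4 (SE 0.21, adjusted p = 0.984) and -0.18 for Rh5 (SE 0.25, adjusted p = 0.683). For the mutant they were -0.10 for Rh3 (SE 0.13, adjusted p = 0.671), -0.27 for Rh4 (SE 0.14, adjusted p = 0.241) and 0.24 for Rh5 (SE 0.20, adjusted p = 0.453). The last was called without DAT mutant vehicle replicate 1 (log2 change 0.49, adjusted p = 0.0535), the library of the fits with the highest Rh5.

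**Figure D3:**
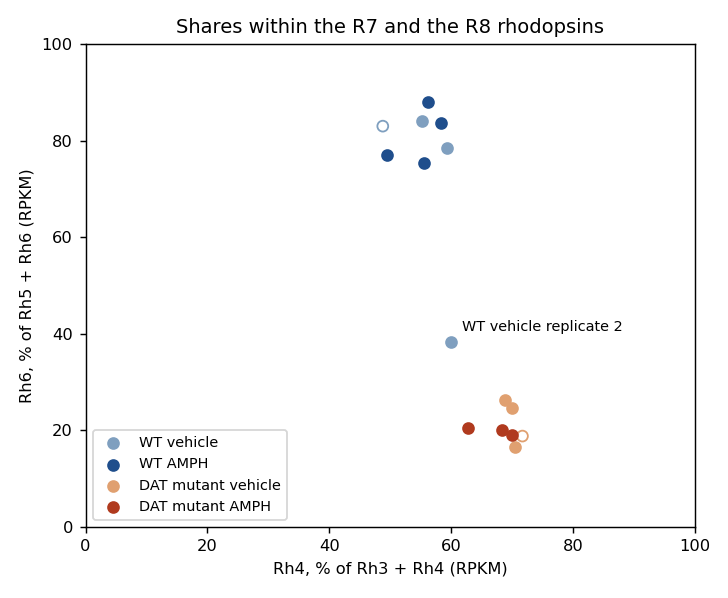
Share of Rh6 in the R8 opsins (y axis, % of Rh5 + Rh6 in RPKM) against the share of Rh4 in the R7 opsins (x axis, % of Rh3 + Rh4) for each library. Filled points are the 13 libraries of the fits and open points the 2 libraries left out. DAT mutant libraries lie at 62.7 to 71.7% Rh4 and 16.6 to 26.3% Rh6, and WT vehicle replicate 2 lies apart from other WT libraries at 38.4% Rh6.

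Rh2, the ocellar opsin (FBgn0003248; chromosome 3R, 14725143 to 14726741, plus strand), was low in the DAT mutant on AMPH. The 3 libraries of that group had 5.96, 6.67 and 30.0 RPKM, against 82.5, 53.3, 38.4 and 119 RPKM in DAT mutant vehicle replicates 1 to 4. WT AMPH replicates 1 to 4 had 78.8, 79.3, 134 and 115.5 RPKM, and WT vehicle replicates 1 to 4 had 210, 62.4, 91.1 and 96.1 RPKM. No other group held a library as low as the 3 DAT mutant AMPH libraries, which themselves spread from 5.96 to 30.0 RPKM.

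In the DAT mutant, Rh2 fell by 2.63 log2 units on AMPH (SE 0.58, limma adjusted p = 0.0202), and the strains on AMPH differed by -3.08 (DAT mutant against WT, SE 0.48, adjusted p = 0.0147). The former ranked 12 from the lowest among 9952 genes. It was not called with all 15 libraries (log2 change -2.52, adjusted p = 0.125). In WT the AMPH change was 0.27 (SE 0.23, adjusted p = 0.468), and on vehicle the strains differed by -0.18 (SE 0.37, adjusted p = 0.845).

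The AMPH responses of Rh2 in both strains differed by 2.91 log2 units (WT minus DAT mutant, SE 0.70), the highest difference of 10332 genes, but the adjusted p of 0.30 did not pass the threshold (unadjusted p = 0.00119). Without DAT mutant AMPH replicate 3, the library with 30.0 RPKM, it was 3.602 with an adjusted p of 0.0318. Over leave-one-out fits the adjusted p was 0.0318 to 0.654. oc, which encodes a homeodomain protein needed for the ocelli and is expressed in other eye and brain cells too, was at 6.25 to 9.57 RPKM in DAT mutant AMPH libraries and at 7.37 to 10.5 RPKM in WT AMPH libraries (log2 change -0.10, SE 0.17, adjusted p = 0.809). Its part in the Rh2 difference was not tested.

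ninaE, the opsin of R1 to R6 (FBgn0002940; chromosome 3R, 15711968 to 15713928, minus strand), was not called in any comparison. WT vehicle replicates 1 to 4 had 21549, 15698, 22563 and 30234 RPKM, and WT AMPH replicates 1 to 4 had 20901, 21108, 18589 and 27285 RPKM. DAT mutant vehicle replicates 1 to 4 had 26653, 16571, 27156 and 26085 RPKM, and DAT mutant AMPH replicates 1 to 3 had 22995, 21560 and 21682 RPKM. The lowest values were in the library with low Rh6 and in the library that stood apart.

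On AMPH the log2 change of ninaE was -0.02 for WT (SE 0.35, limma adjusted p = 0.98) and -0.27 for the DAT mutant (SE 0.17, adjusted p = 0.315). The strains differed by 0.27 on vehicle (SE 0.34, adjusted p = 0.724) and by 0.02 on AMPH (SE 0.26, adjusted p = 0.983). The WT vehicle group was the most variable, with a coefficient of variation of 31.8%, against 2.01% in the DAT mutant on vehicle. With all 15 libraries these were 26.5% and 20.9%, so the low spread of the mutant rested on the library left out.

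Set side by side, the comparisons called few of these genes. AMPH in WT called 0 of 6 by limma, and none reached an unadjusted p under 0.05 (lowest 0.225). Of the 17584 transcripts tested there 22% were called, 7.2% higher and 14.8% lower. AMPH in the DAT mutant called 1 of 6, Rh2, where 22.1% of all transcripts were called, 6.71% higher and 15.4% lower.

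Between the strains, 2 of 6 were called on vehicle, Rh6 lower and Rh4 higher, where 8.45% of all transcripts were called, 3.87% higher and 4.59% lower. On AMPH 2 of 6 were called, Rh6 and Rh2, both lower, where 5.54% of all transcripts were called, 2.21% higher and 3.32% lower. The difference between the AMPH responses called 0 of 6 by limma, with Rh2 alone at an unadjusted p under 0.05, where 0.145% of all transcripts were called, 0.0893% higher and 0.0558% lower. These comparisons share groups of libraries and are not independent.

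The shares also depended on the libraries. With all 15 of them, AMPH in WT called 0 of 6, where 29.6% of all transcripts were called, 10.1% higher and 19.5% lower. AMPH in the DAT mutant then called 0 of 6, where 1.47% were called, 0.689% higher and 0.78% lower. The strain difference on vehicle called 1 of 6, Rh6, where 1.08% were called, 0.43% higher and 0.654% lower. For the difference between the responses 0 of 6 were called, where 0.0445% were called, 0.0222% higher and 0.0222% lower. The median over all transcripts was then 0.12 for AMPH in the DAT mutant and -0.22 between strains on vehicle, against -0.08 and -0.02 in the 13 libraries. The AMPH groups have no further library, so the strain difference on AMPH had no such alternative.

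**Figure D4:**
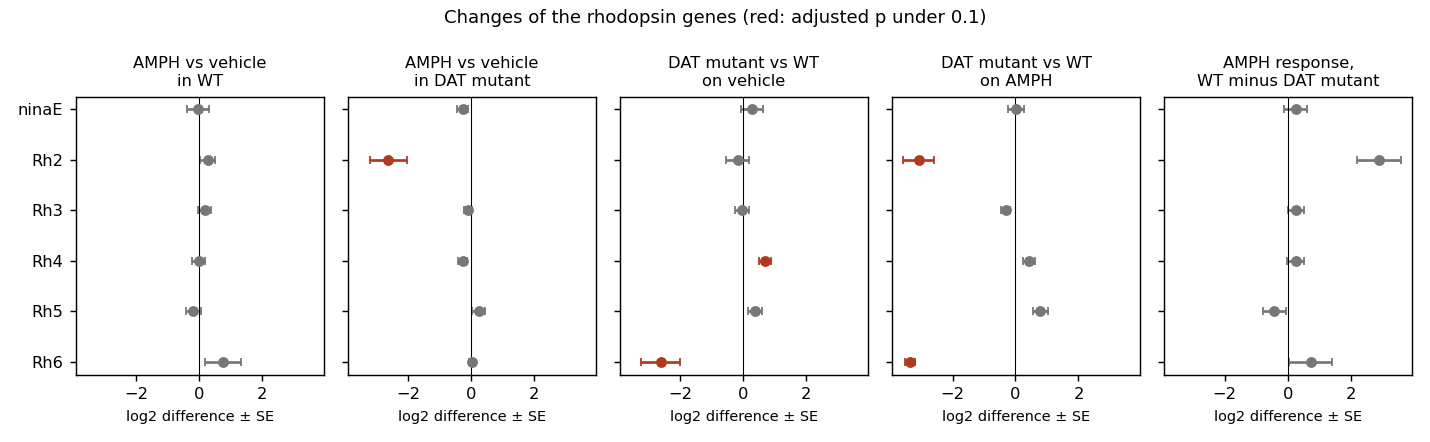
Log2 difference ± SE (x axis) of each rhodopsin (y axis) in the 5 comparisons, from limma on 13 libraries; red points have an adjusted p under 0.1. Red points are Rh2 for AMPH in the DAT mutant (-2.63), Rh4 (0.69) and Rh6 (-2.62) between strains on vehicle, and Rh2 (-3.08) and Rh6 (-3.34) between strains on AMPH.

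Rh7, an opsin of the brain's clock neurons that is not among the 6 genes, was added after its values were seen. Its level was 2.81 to 3.64 RPKM in WT on AMPH, 5.65 to 6.35 RPKM in WT on vehicle, 5.54 to 8.76 RPKM in the DAT mutant on AMPH and 3.01 to 9.32 RPKM in the DAT mutant on vehicle. Rh7 fell on AMPH in WT (log2 change -0.70, SE 0.11, limma adjusted p = 0.00599), and in the DAT mutant the change was -0.16 (SE 0.16, adjusted p = 0.541). The difference between these responses was -0.53 (SE 0.20) and did not pass the threshold (adjusted p = 0.756).

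The genes that act with rhodopsins are considered next, each by its most abundant transcript. Of 19 phototransduction genes, 5 fell and 0 rose on AMPH in WT, with a median log2 change of -0.32, against -0.07 over all transcripts, of which 14.8% fell. Among the same 19 genes 8 fell and 0 rose in the DAT mutant, with a median of -0.31, against -0.08 over all transcripts, of which 15.4% fell. With each library centred on its median, 3 genes fell in WT and 7 in the mutant, and with all 15 libraries 7 and 0 fell, where 19.5% and 0.78% of all transcripts fell. The total of 5 of 19 called in WT was near the 22% called over all transcripts. Of all transcripts called on AMPH, 32.7% rose in WT, or 50.9% after that centring, and 30.4% rose in the mutant, or 50.6% after it.

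Those with the lowest adjusted p in WT were rdgB, a phosphatidylinositol transfer protein (log2 change -0.63, limma adjusted p = 0.00527), laza, a lipid phosphatase (-0.47, adjusted p = 0.0203), and Calx, the sodium-calcium exchanger (-0.45, adjusted p = 0.0411). Those in the DAT mutant were laza (-0.89, adjusted p = 0.00226), rdgA, the diacylglycerol kinase (-0.57, adjusted p = 0.00759), and Calx (-0.59, adjusted p = 0.00833). Between strains 1 of 19 was called on vehicle, where 8.45% of all transcripts were called, and 1 on AMPH, where 5.54% were called. These were rdgC, the phosphatase that acts on rhodopsin (-0.44 on vehicle, limma adjusted p = 0.0268), and laza (-0.51 on AMPH, adjusted p = 0.0297). Arr2, the main arrestin, and trp, the channel, were not called between the strains (Arr2 0.27 on vehicle, adjusted p = 0.678; trp 0.57 on vehicle, adjusted p = 0.12).

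Genes for opsin folding and for the chromophore included some that fell on AMPH. Of 9 tested in WT 3 fell and 0 rose, where 14.8% of all transcripts fell. These were rdhB (CG7077 in the table), the retinol dehydrogenase of the pigment cells (log2 change -1.42, SE 0.23, limma adjusted p = 0.00708), Cnx99A, the calnexin needed for ninaE folding (-0.53, SE 0.12, adjusted p = 0.0203), and ninaB, which cleaves carotenoids to retinal (-0.71, SE 0.18, adjusted p = 0.036). In the DAT mutant 3 of 8 fell and 1 rose, where 15.4% of all transcripts fell and 6.71% rose. ninaB changed by -0.85 (limma adjusted p = 0.00373), rdhB by -1.003 (adjusted p = 0.00481) and Cnx99A by -0.42 (adjusted p = 0.0374). The gene that rose was santa-maria, a scavenger receptor for carotenoids (log2 change 0.30, adjusted p = 0.0857).

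rdhB was at 95.7 to 133 RPKM in WT on vehicle and at 28.1 to 60.2 RPKM in WT on AMPH, and at 62.0 to 86.2 and 26.9 to 39.0 RPKM in the DAT mutant. The groups did not overlap within a strain. santa-maria differed between the strains, at 43.0 to 52.0 RPKM in WT and 27.2 to 37.8 RPKM in the DAT mutant on vehicle (log2 change -0.68, adjusted p = 0.0139), and also on AMPH (-0.62, adjusted p = 0.00972). rdhB was lower in the DAT mutant on vehicle (-0.81, adjusted p = 0.00853). With all 15 libraries, 1 of 8 fell on AMPH in the DAT mutant, where 0.78% of all transcripts fell, and 0 of 8 were called between strains on vehicle, where 1.08% were called.

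Of 13 genes, most of them known for the choice of opsin or photoreceptor fate, 12 were tested. Between strains 2 were called on vehicle, where 8.45% of all transcripts were called. On AMPH 0 were called by limma (lowest adjusted p = 0.17, for Pph13), where 5.54% of all transcripts were called. Hr38, a nuclear receptor, was higher in the DAT mutant on vehicle (log2 change 1.02, SE 0.12, limma adjusted p = 0.00424), as was Pph13, a homeodomain factor needed for Rh6 transcription (0.50, SE 0.12, adjusted p = 0.0623). The part of Pph13 in the Rh6 difference was not tested. melt and wts, whose mutual repression sets the choice between Rh5 and Rh6 in R8, were not called. Over all libraries melt was at 2.17 to 3.13 RPKM and wts at 5.98 to 19.6 RPKM. On vehicle their log2 changes were -0.12 (SE 0.13, adjusted p = 0.675) and -0.10 (SE 0.09, adjusted p = 0.604). On AMPH they were -0.11 (SE 0.12, adjusted p = 0.708) and -0.09 (SE 0.10, adjusted p = 0.724). These bulk libraries do not separate R8 cells, so the values do not show how the choice stood in R8. ss, the switch to yellow R7, differed by 0.16 on vehicle (SE 0.12, adjusted p = 0.512).

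On AMPH 3 of these 12 genes fell in WT and 1 rose, and 3 fell in the DAT mutant, counts that lie near the 22% and 22.1% called over all transcripts. In WT the lowest adjusted p belonged to dve, a repressor of Rh3 and Rh5 in outer photoreceptors (-0.41, adjusted p = 0.0468), Hr38 (0.59, adjusted p = 0.0535) and so, an eye determination gene (-0.39, adjusted p = 0.0608). The 3 of the DAT mutant were ss (-0.55, adjusted p = 0.0257), so (-0.57, adjusted p = 0.0357) and Hr38 (-0.49, adjusted p = 0.0365). With median centring 0 fell and 1 rose in WT. With all 15 libraries, 0 of 12 were called between strains on vehicle or on AMPH in the DAT mutant, where 1.08% and 1.47% of all transcripts were called, and 6 fell and 1 rose on AMPH in WT, where 29.6% were called.

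Of 6 rhabdomere genes, which build the light-sensing membrane, AMPH lowered 2 in WT and 4 in DAT mutants, where 14.8% and 15.4% of all transcripts fell, and 1 was called between strains on vehicle, where 8.45% were called. That was chp, a surface protein of the rhabdomere (0.49, SE 0.13, limma adjusted p = 0.0854), and on AMPH 0 of 6 were called by limma (lowest adjusted p = 0.206, for eys). With all 15 libraries, 0 of 6 were called between strains on vehicle and 0 of 6 on AMPH in the DAT mutant, where 1.08% and 1.47% of all transcripts were called. Photoreceptor markers as a whole did not follow Rh6: of 7, 1 was called between strains on vehicle (chp, higher) and 0 on AMPH, or 1 higher there with median centring. Their sum on AMPH was 10776 to 12258 RPKM in WT and 11586 to 12533 RPKM in the DAT mutant, ranges that overlapped. Arr2 made up most of this sum, at 8900 to 10055 RPKM in WT and 8971 to 9900 RPKM in the DAT mutant. Over all transcripts 5.54% were called between strains on AMPH.

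Markers of other tissues moved with treatment as well. Of 5 antennal markers, 4 fell on AMPH in WT and 5 in DAT mutants, and of 5 glial markers 1 and 4 fell, where 14.8% and 15.4% of all transcripts fell. On AMPH the antennal sum was 2739 to 3371 RPKM in WT and 2674 to 3356 RPKM in the DAT mutant, against 4758 to 4990 and 4329 to 5625 RPKM on vehicle in the libraries of the fits. The glial sum on AMPH was 541 to 624 RPKM in WT and 428 to 439 RPKM in the DAT mutant, against 666 to 830 and 563 to 765 RPKM on vehicle. Of 3 fat body markers tested, 1 fell in WT and 2 in the DAT mutant. apolpp, a lipoprotein precursor, changed by -2.68 in WT (SE 0.28, limma adjusted p = 0.00131) and by -2.90 in the mutant (SE 0.28, adjusted p = 0.000689), where Lsp2, a storage protein, changed by -2.91 (SE 0.33, adjusted p = 0.00115). The fat body sum was 42.7 to 112 RPKM on AMPH and 117 to 332 RPKM on vehicle in WT, and 92.9 to 107 and 208 to 292 RPKM in the mutant. Of 5 muscle markers, 3 fell on AMPH in each strain: Mhc by -1.69 and -1.11, Act88F by -2.19 and -1.14, and Mlc2 by -1.01 and -0.55 (WT and mutant, limma adjusted p = 0.000593 to 0.0354). Of 5 pan-neuronal markers 2 and 1 fell. Of the lamina and medulla markers, ort fell in neither strain and HisCl1 fell in the DAT mutant only. The gene hdc, listed with them, also fell in the DAT mutant only and is not counted here as a marker of these cells. With median centring or with all 15 libraries, none of ort, HisCl1 and hdc fell in the DAT mutant. With median centring 0 pan-neuronal and 0 glial markers fell in WT, and 1 and 4 in the DAT mutant. Antennal markers that fell were then 3 in WT and 4 in the mutant, with muscle and fat body counts unchanged. With all 15 libraries 0 pan-neuronal markers fell in the DAT mutant.

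Between strains on vehicle, 4 of 5 muscle markers were lower in the DAT mutant, where 4.59% of all transcripts were called lower. On AMPH 0 of 5 were called, where 5.54% of all transcripts were called. The muscle sum on vehicle was 711 to 985 RPKM in WT and 476 to 610 RPKM in the DAT mutant. With all 15 libraries, 2 of 3 fat body, 1 of 5 antennal, 0 of 5 glial and 0 of 5 muscle markers fell on AMPH in the DAT mutant, where 0.78% of all transcripts fell. On vehicle 1 of 5 muscle markers was then lower in the DAT mutant, where 0.654% of all transcripts were called lower. The part of these markers in the Rh2 and Rh6 differences was not tested.

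The genes around Rh6 did not share its strain difference as a group. Of 11 genes tested within 100 kb on vehicle, 2 were called, where 8.45% of all transcripts were called. These were Act88F, the flight muscle actin (log2 change -1.66, SE 0.37, limma adjusted p = 0.046), and CG18522 (0.36, SE 0.09, adjusted p = 0.0748). On AMPH 0 of 13 were called by limma, where 5.54% of all transcripts were called. The changes of these 13 were between -0.61 and 1.11, around a median of 0.20. None of the 13 had an adjusted p below that of CG5205 (adjusted p = 0.234). Act88F is among the muscle markers.

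**Figure D5:**
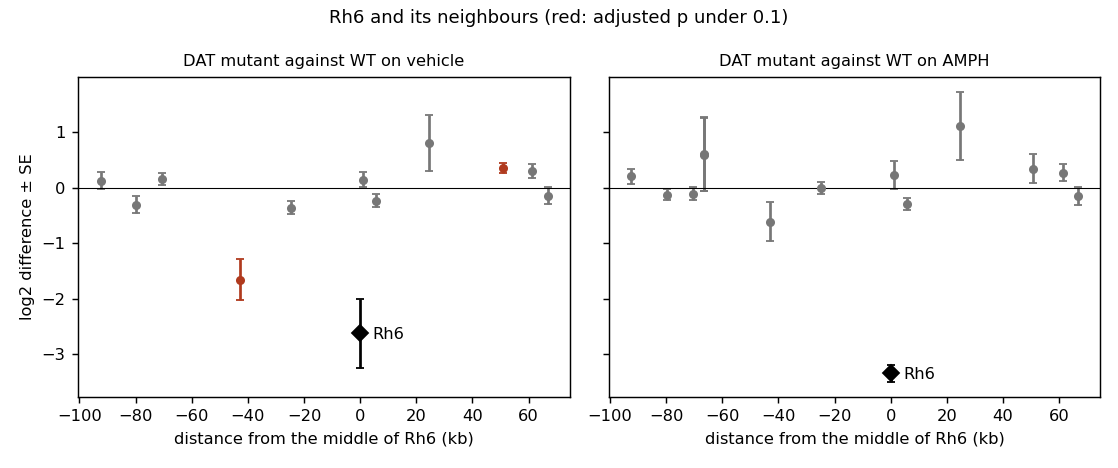
Log2 difference ± SE between DAT mutant and WT (y axis) for Rh6 (black diamond) and the genes tested within 100 kb (x axis, distance in kb from the middle of Rh6), on vehicle and on AMPH; red points have an adjusted p under 0.1. Rh6 lies at -2.62 and -3.34, below all of its neighbours.

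Around the other rhodopsins single genes differed between the strains. Near Rh5, the crystallin gene Crys (Cry in the table), which encodes a lens protein, was higher in the DAT mutant by 3.97 log2 units on vehicle (SE 0.27, limma adjusted p = 0.000222) and by 4.10 on AMPH (SE 0.33, adjusted p = 0.000592). It was 1 of 4 called among 35 genes tested on vehicle. Near ninaE, CG17186 was lower by 2.83 log2 units on vehicle (log2 change -2.83, SE 0.13, adjusted p = 2.79e-05) and was the only gene called among 19 tested there. Over all transcripts 8.45% were called on vehicle. Crys and CG17186 were chosen after their values were seen.

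The eye pigment genes st and bw, which encode transporters of pigment precursors, were lower in the DAT mutant than in WT. st differed by -0.999 on vehicle (SE 0.11, limma adjusted p = 0.0023) and by -0.84 on AMPH (SE 0.11, adjusted p = 0.00721). bw differed by -0.96 (SE 0.13, adjusted p = 0.00657) and by -0.87 (SE 0.13, adjusted p = 0.0135). Of the 6 lens and pigment markers, 4 were tested. On vehicle st and bw were called lower, Crys was called higher and 1 was not called, and on AMPH the same held. Over all transcripts 4.59% were called lower and 3.87% higher on vehicle, and 3.32% lower and 2.21% higher on AMPH.

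The genes most like each rhodopsin were taken as the 3 with the highest Pearson r of log2(RPKM + 1) over the 13 libraries, among 7952 genes with a mean of at least 5 RPKM. The libraries share strain and treatment, so these values are descriptions. For Rh6 they were Cks30A (r = 0.985), CG8757 (r = 0.952) and GstE5, a glutathione transferase (r = 0.946). In the WT vehicle replicates 1 to 4, Cks30A was at 4.49, 2.11, 19.4 and 14.9 RPKM, in WT on AMPH at 9.86 to 17.8 RPKM and in DAT mutant libraries at 0.562 to 2.11 RPKM. It was thus low in WT vehicle replicate 2, as Rh6 was, and also in WT vehicle replicate 1, where Rh6 was at 925 RPKM. CG8757 was at 12.3 to 29.8 RPKM in WT libraries and at 0.106 to 0.515 RPKM in DAT mutant libraries.

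For Rh4 the genes were sina (r = 0.966), which lies within its span, the tetraspanin Tsp42Ej (r = 0.946) and Ady43A (r = 0.940). For ninaE they were Rbsn-5 (r = 0.904), Dnz1 (r = 0.876) and inaC, the eye-specific protein kinase C (r = 0.869). For Rh2 they were CG8369, CG15546 and CG14132 (r = 0.832 to 0.865), for Rh3 Cchl, CG30203 and Tab2 (r = 0.840 to 0.867), and for Rh5 CG42359, CG3419 and CG1091 (r = 0.863 to 0.911). No rhodopsin was among the 3 genes most like another rhodopsin. Between members, r over the 13 libraries was 0.71 for ninaE and Rh4, 0.69 for Rh3 and Rh6 and -0.70 for Rh5 and Rh6.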

How the data were processed

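Reads of polyA+ Ion Torrent libraries were mapped by the authors with tmap (dm3), and their deposited table gives RPKM per transcript for 15 libraries. The tool that made the RPKM values, the annotation release and the strand setting are not given in the sources used here. The single-library files held the same values as the table. The fits used the 13 libraries whose group means equal the means the study lists, within a tolerance of 0.0001, for 717 WT and 629 DAT mutant transcripts. A transcript was kept if it reached 1 RPKM in a number of libraries equal to the smallest group. Values of log2(RPKM + 1) were fitted with limma 3.58.1 (mean-variance trend, R 4.3.3) on the groups compared, and on all 4 groups for the difference between responses. RPKM are not counts, so the DESeq2 count model of the study was not used. All 6 rhodopsins passed the filter in every comparison. The code was tested on simulated data. Tried in turn were the 15 libraries together, the same less WT vehicle replicate 2 (chosen after seeing the data), omission of single libraries, no filter, a mean of at least 5 RPKM, a pseudocount of 0.1, median centring, 1 fit for all groups, a replicate block and a threshold of 0.05.

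Besides the 6 rhodopsins, the text names the 3 genes most like each and at most 3 called genes per list and comparison, those with the lowest adjusted p; genes of the lists given for their known role or beside a result (Arr2, trp, melt, wts, ss, oc) and Rh7, Crys near Rh5, CG17186, CG5205 and CG18522 were added after their values were seen. The members and lists were chosen with earlier results of these data known. Depth was estimated from the steps between low values in 662 single-exon transcripts. Symbols of 10187 genes were matched to a later annotation by ID. Read numbers used transcript lengths of that annotation. The Rh6 transcript is absent from it, so the length of the longest Rh6 transcript there (1407 bases) was used.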

Additional observations from a re-analysis of the deposited data

Results flagged for a closer look

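Of 18 values of a rhodopsin in a group of at least 4 libraries, 2 had a library far from the rest of its group, where chance alone flags about 1 in 20. Rh6 in WT vehicle replicate 2 was at 155 RPKM, and its gap to the nearest library was 0.979 of the range of the group. ninaE in DAT mutant vehicle replicate 2, a library left out of the fits, was at 16571 RPKM, and its gap was 0.919 of the range.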

How the results depend on the processing

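The number of rhodopsins called changed as follows. For AMPH in the DAT mutant it was 1, but 0 with all 15 libraries and 1 to 2 when single libraries were left out. With a block on replicate numbers, which only follow the order of the samples, it was 0. Between strains on vehicle it was 2, but 1 with all 15 libraries, 1 with these less WT vehicle replicate 2, 0 without the filter, 0 at an adjusted p under 0.05, 1 with the replicate block, and 0 to 1 when single libraries were left out. For the difference between responses it was 0, and 0 to 1 when single libraries were left out. For the strains on AMPH it was 2, and 2 to 3 under every alternative run. Among single values under the alternatives, 431 kept direction and side of the threshold, 26 changed sign, 19 lost the threshold and 4 passed it; the cause was not tested.

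Changes of sign were confined to values that were not called. With all 15 libraries, the AMPH change in WT was -0.062 for Rh2 and 0.030 for Rh4, and that of Rh6 in the DAT mutant was -0.013. With median centring the WT values were 0.058 for ninaE and 0.068 for Rh4. With all 15 libraries less WT vehicle replicate 2, they were -0.30 for Rh2, -0.11 for Rh3 and -0.091 for Rh6, the strain difference of ninaE on vehicle was -0.051, and the difference between responses was -0.072 for ninaE, -0.085 for Rh3 and -0.079 for Rh6. When single libraries were left out, the AMPH change in WT ranged from -0.26 to 0.21 for ninaE, from -0.062 to 0.32 for Rh3, from -0.20 to 0.13 for Rh4 and from -0.11 to 1.21 for Rh6. The strain difference ranged from -0.53 to 0.27 for Rh2 and from -0.28 to 0.10 for Rh3 on vehicle, and from -0.054 to 0.13 for ninaE on AMPH, and the difference between responses of Rh6 from -0.14 to 1.17.

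Replicate numbers here follow the order of the samples within each group and are not taken from their titles. Same-numbered libraries correlated in their deviations at -0.45 to 0.17. These few correlations cannot decide whether samples were paired, and a block on the numbers has no known basis in the design. The replicate block moved the transcripts called from 1478 to 75 between strains on vehicle, from 973 to 109 on AMPH and from 3862 to 1774 for AMPH in the DAT mutant. With it Rh2 in the DAT mutant was -1.97 (limma adjusted p = 0.179).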
